A study of Homo sapiens with 19 samples.

Results

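Of the 5147 HIF-1α windows called in 786-O cells that re-express HIF-1α, 1107 shared no base with a HIF-2α window of any cell pool, shared no base with a HIF-1β window of the control cells, and shared at least 1 base with a HIF-1β window of the re-expressing cells. They are called here HIF-1α-only sites with newly called HIF-1β. They were chosen by the positions of windows in 6 of the 7 peak lists, so that their overlap with these lists is a description and not a result. The other HIF-1α windows were 1398 HIF-1α-only sites at which HIF-1β was called in the control cells (control-HIF-1β sites), 862 HIF-1α-only sites at which it was called in neither of these pools (sites without HIF-1β), and 1780 sites with a HIF-2α window. All 7 lists of the series together hold 29309 windows.

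786-O cells are a human kidney cancer line of the clear cell type in which VHL, the ubiquitin ligase subunit that marks HIF-α for destruction, is defective. Pools of these cells were transduced with the empty vector (control (pRRL)), with HIF-1a (pRRL-HIF-1a) or with HIF-2a (pRRL-HIF-2a), all from a lentiviral vector that also carries EGFP, and all 3 pools keep their own HIF-2α and truncated HIF-1α transcripts. The pools are transduced populations of 1 line, and nothing in the labels says that the 3 RNA libraries came from separate transductions, so p-values measure the spread between these libraries only. ChIP-seq was done once per antiserum and pool, and polyA-selected RNA was sequenced in 3 libraries of each pool (1, 2 and 3). The RNA libraries held 27852754 to 54287621 counted reads, whereas the depth of the ChIP-seq libraries is unknown here because the peak lists hold positions only.

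HIF-1α and HIF-2α each bind DNA as a dimer with the shared subunit HIF-1β (ARNT), and the dimer reads the hypoxia response element (HRE), whose core is ACGTG or GCGTG. In oxygenated cells with VHL the α subunits are hydroxylated and degraded, while in VHL-defective kidney cancer they persist. Many HIF sites lie in open chromatin at gene promoters, which in mammals are often rich in GC and in the dinucleotide CpG.

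The short sequences below come from sites of named genes (the genes that moved most, or members of hypoxia gene lists) that lay within 5 kb of a start site and held an HRE core, and they are shown to let the element be seen in its promoter. All are reference sequence of GRCh37 on the strand of the gene, written 5′ to 3′. Capitals mark the HRE core, read on either strand, so that CACGT and CACGC are the same cores on the other strand. Stretches that would enter an untranslated region were kept to 29 bases.
HOXA13 (chr7:27239941-27240045, minus strand): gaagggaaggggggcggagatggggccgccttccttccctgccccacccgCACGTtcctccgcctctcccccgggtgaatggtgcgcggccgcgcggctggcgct
SDK1 (chr7:3340312-3340416, plus strand): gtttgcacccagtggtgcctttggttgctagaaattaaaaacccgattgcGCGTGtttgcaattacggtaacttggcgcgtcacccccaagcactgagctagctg
SETBP1 (chr18:42260426-42260530, plus strand): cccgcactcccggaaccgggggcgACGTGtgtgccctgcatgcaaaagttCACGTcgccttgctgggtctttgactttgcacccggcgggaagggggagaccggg
PTPRU (chr1:29563854-29563958, plus strand): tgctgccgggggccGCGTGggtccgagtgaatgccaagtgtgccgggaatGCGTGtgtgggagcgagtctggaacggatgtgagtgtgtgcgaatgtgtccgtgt
SFMBT2 (chr10:7451980-7452084, minus strand): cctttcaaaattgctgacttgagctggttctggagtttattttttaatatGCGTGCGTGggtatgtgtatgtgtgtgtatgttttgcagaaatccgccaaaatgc
CACNA2D1 (chr7:82072629-82072733, minus strand): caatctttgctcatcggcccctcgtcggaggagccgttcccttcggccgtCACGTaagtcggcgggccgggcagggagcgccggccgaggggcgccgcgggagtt
EGLN2 (chr19:41305017-41305081, plus strand): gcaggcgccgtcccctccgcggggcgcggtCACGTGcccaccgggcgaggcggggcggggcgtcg
FOS (chr14:75745306-75745410, plus strand): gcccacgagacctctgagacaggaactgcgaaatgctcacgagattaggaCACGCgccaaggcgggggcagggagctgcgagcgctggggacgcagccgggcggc
HIF1A (chr14:62162430-62162458, plus strand): cttctcttctccGCGTGtggagggagcca
TRIB2 (chr2:12857517-12857545, plus strand): cgttctctcctgCACGTctggctgcattc
STON2 (chr14:81902488-81902516, minus strand): gcctggtcgagcCACGCggaggcgcggcg
COX4I1 (chr16:85833419-85833447, plus strand): ccatcaagtctgCACGTccgcagcctggc

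The stretches at PTPRU and SETBP1 hold 2 cores each, spaced along the DNA, and the 2 at SFMBT2 run into each other. The core at EGLN2 is the palindrome CACGTG, which reads as a core on both strands and was counted as 2.

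Nearly all sites were at promoters. In 1058 of 1107 sites (95.6%, 95% Wilson interval 94.2 to 96.6) the nearest annotated start of transcription was within 1 kb of the window's midpoint, against 80.5% of the control-HIF-1β sites and 79.6% of those without HIF-1β. The differences were 15.0 percentage points (95% Newcombe interval 12.6 to 17.4) and 15.99 points (13.1 to 19.004). All intervals of shares cover counting error only, since each list comes from 1 library. The median distance to a start site was 0.125 kb, against 0.180 kb and 0.183 kb, and 14 sites lay beyond 5 kb, the farthest at 29.8 kb. None lay beyond 50 kb, which allows a share of up to 0.346% (upper Wilson bound). Of the sites beyond 1 kb, 21 were intergenic (1.90% of all sites) and 18 were in introns (1.63%), where the control-HIF-1β sites had 8.37% and 9.80%.

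The nearest start site belonged to a protein-coding gene at 966 sites (87.3%, 85.2 to 89.1), which is 9.37 points above the control-HIF-1β sites (Newcombe interval 6.40 to 12.3) and 8.38 points above the sites without HIF-1β (5.04 to 11.8). A further 111 sites (10.0%) were nearest a long non-coding RNA gene. Midpoints lay downstream of the start site at 55.1% of sites, with differences from the other 2 groups whose intervals include 0, of 1.53 points (-2.40 to 5.44) and 1.39 points (-3.03 to 5.82). Protein-coding start sites on both strands within 1 kb, the arrangement of a bidirectional promoter, were found at 10.9% of sites, against 11.52% and 15.0%.

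The sites were spread over the genome, with 98 on chromosome 1, 63 on the much shorter chromosome 19 and 7 on chromosome X. Per 10 Mb this was 3.93, 10.7 and 0.451 sites. Chromosome 13 had 8 sites, or 0.695 per 10 Mb. The sites made up 19.8% of all HIF-1α windows on chromosome 1, 18.0% on chromosome 19 and 21.9% on chromosome X. On chromosome 13 they were 30.8% of 26 windows, against 1107 of 5147 over the genome.

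The DNA of the sites was richer in GC than that of the other HIF-1α-only sites. The median GC content within 150 bp of the midpoint was 72.4%, against 66.1% at control-HIF-1β sites, 63.5% at sites without HIF-1β and 62.8% at the start sites of 20113 protein-coding genes. The ratio of observed to expected CpG had a median of 0.882, against 0.804, 0.690 and 0.732. At the tails, the GC content of the sites ran from 39.2% to 87.7%, with 80% of them between 60.7% and 79.4%.

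**Figure D1:**
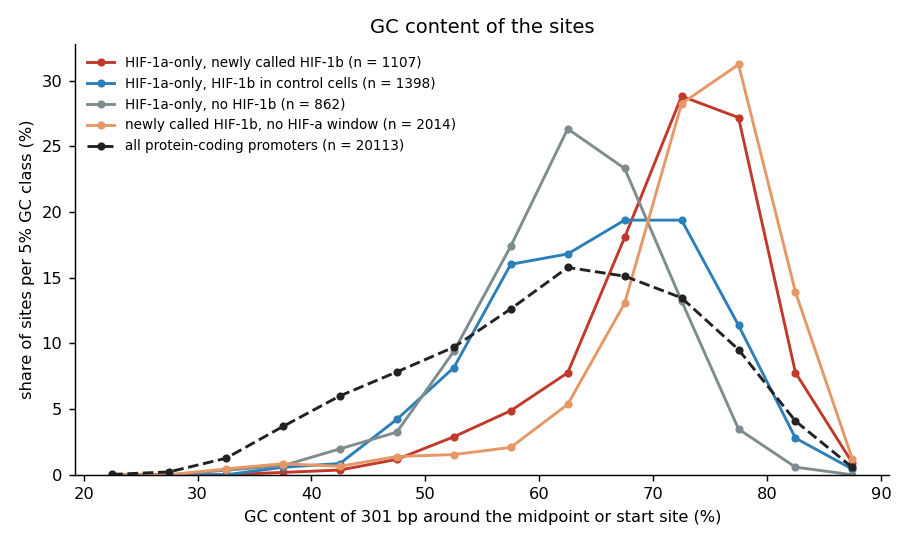
GC content (%) within 150 bp of the midpoint of each site, or of the start site for promoters, on the horizontal axis, and the share of sites in each class of 5% GC on the vertical axis, for 3 groups of HIF-1α-only sites, for newly called HIF-1β windows without a HIF-α window, and for all protein-coding promoters. The sites with newly called HIF-1β (median 72.4%) lie to the right of the other HIF-1α-only sites (66.1% and 63.5%) and close to the newly called HIF-1β windows that have no HIF-α window (74.4%).

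The HIF-1β list of the re-expressing cells as a whole had the same character. Of its 5807 windows 83.1% lay within 1 kb of a start site, with a median GC content of 72.1%, against 40.1% and 53.8% for the 6572 HIF-1β windows of the control cells and 47.2% and 58.5% for the 3431 of the HIF-2α overexpressing cells. Among its windows were 2014 that were not called in the control cells and shared no base with a HIF-1α or HIF-2α window. When both were centred on the HIF-1β window, 96.9% of the 1105 HIF-1β windows at the sites described here lay within 1 kb of a start site, and 92.3% of those 2014 windows did, a difference of 4.67 points (Newcombe interval 3.05 to 6.19). Their median GC content was 73.8% and 74.4%. The newly called HIF-1β windows without HIF-1α were also GC-rich promoter windows, and the part of this 1 HIF-1β library in the placement of the sites was not tested.

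HRE cores were common at the sites. At least 1 core, ACGTG or GCGTG on either strand, lay within 150 bp of the midpoint at 779 of 1107 sites (70.4%, 67.6 to 73.0). The share was 72.0% at control-HIF-1β sites, a difference of -1.59 points that its interval does not separate from 0 (-5.17 to 1.97), and 58.8% at sites without HIF-1β, a difference of 11.6 points (7.30 to 15.8). Among all protein-coding promoters 53.9% held a core in a window of the same length. At the HIF-1β windows, 70.6% of those at the sites and 66.2% of the newly called windows without a HIF-α window held a core, a difference of 4.35 points (0.929 to 7.70).

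The 2 forms of the core gave different comparisons. ACGTG was found at 30.7% of the sites, which is 6.70 points below the control-HIF-1β sites (interval of the difference -10.4 to -2.96) and 5.89 points above those without HIF-1β (1.89 to 9.81). GCGTG was found at 57.2%, which differed from the former by 0.815 points (-3.09 to 4.71) and from the latter by 12.6 points (8.19 to 17.0). TACGTG, a longer form of the first core, was found at 5.15% of sites, against 8.66% and 4.64%. Of the 1603 cores counted at the sites, 389 were GGCGTG (24.3%, against 24.6% of the cores at all protein-coding promoters) and 332 were CGCGTG (20.7%, against 16.5%). Another 240 (15.0%, against 17.5%) were CACGTG, the E-box also read by MYC and by other basic helix-loop-helix factors. Each CACGTG was counted on both strands, as 2 cores.

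To set the sites beside promoters of like base composition, the share was also counted within classes of GC, for the sites within 1 kb of a start site. Between 65% and 70% GC, 74.6% of 189 sites held a core (67.95 to 80.3) and 66.1% of 3041 promoters (64.4 to 67.8). Between 70% and 75% it was 73.0% of 307 sites (67.7 to 77.6) and 68.1% of 2709 promoters (66.3 to 69.8), and between 75% and 80% it was 72.1% of 298 sites (66.8 to 76.9) and 65.5% of 1917 promoters (63.3 to 67.6). The shares of the sites were above those of the promoters in these 3 classes, but the intervals of the middle and the upper class overlap.

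Cores were concentrated at the midpoint. The central 100 bp of the windows held 52.6 cores per 100 sites, whereas the 100 bp centred 1200 bp away held 19.7 on one side and 21.95 on the other. The control-HIF-1β sites had 52.6 in the centre and the sites without HIF-1β 36.0. The core nearest to the midpoint lay at a median distance of 80.5 bp, and in 10% of sites within 13 bp.

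**Figure D2:**
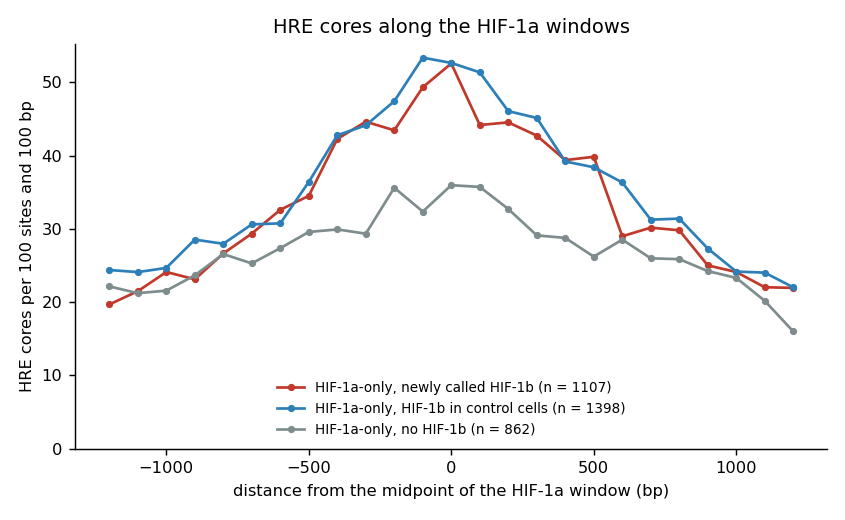
HRE cores per 100 sites and 100 bp (vertical axis) against the distance in bp from the midpoint of the HIF-1α window (horizontal axis), for the 3 groups of HIF-1α-only sites. The sites with newly called HIF-1β and those with HIF-1β in the control cells both reach 52.6 in the centre, against 19.7 to 24.4 at the edges, and the sites without HIF-1β reach 36.0.

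The number of cores within 150 bp ran from 0 at 328 sites, through 1 at 338 and 2 at 227, to 9 at 2 sites. The 6 sites with the most cores were named by this count, with ties settled by the distance of the nearest core to the midpoint. With 9 cores each they were a site 5 bp upstream of the start of ENSG00000290114 (chr7:50516865-50519364) and a site 13 bp upstream of that of DIRC3 (chr2:218620080-218622579), both non-coding RNA genes. With 8 cores followed introns of RAB3A (chr19:18313161-18315660), a small GTPase of vesicle release, and of KCNQ5 (chr6:73331119-73333618), a voltage-gated potassium channel. With 7 came an intron of VWCE (chr11:61060663-61063162) and a non-coding exon of ENSG00000289395 (chr10:12391142-12393641). In all 6 a core lay within 11 bp of the midpoint, but among the 6 sites with 7 cores this distance decided which were named.

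The GC box was more frequent, and the AP-1 motif less frequent, at the sites than at the other HIF-1α-only sites, but neither was separated from the newly called HIF-1β windows without a HIF-α window. GGGCGG, the GC box read by SP1 and related factors, was found at 886 sites (80.04%, 77.6 to 82.3), 22.1 points above the control-HIF-1β sites (18.5 to 25.5) and 26.9 points above those without HIF-1β (22.8 to 30.9), with 54.1% among all promoters. Within classes of GC the comparison with promoters went both ways among sites within 1 kb of a start site, at 68.4% of 76 sites (57.3 to 77.8) and 58.1% of promoters between 60% and 65% GC, and at 85.7% of the sites (81.3 to 89.1) and 88.7% of promoters between 70% and 75%. In that upper class the control-HIF-1β sites had 78.6% and the sites without HIF-1β 91.6%. Between 65% and 70% GC the shares were 74.1% at the sites, 68.8% at control-HIF-1β sites and 68.7% at sites without HIF-1β. Between 75% and 80% they were 93.6%, 92.2% and 96.7%. Within these classes the differences from the other HIF-1α-only sites were smaller than over all sites, and above 70% GC the sites without HIF-1β had the higher share. The AP-1 motif TGACTCA or TGAGTCA was found at 22 sites (1.99%, 1.32 to 2.99), 3.74 points below the control-HIF-1β sites (-5.24 to -2.25) and 4.28 points below the sites without HIF-1β (-6.22 to -2.53), and 3.92% of promoters held it. Among sites within 1 kb of a start site alone these AP-1 differences were -1.41 points (-2.74 to -0.106) and -1.65 points (-3.39 to -0.177). Centred on the HIF-1β window, GGGCGG was found at 79.5% of the 1105 windows at the sites and 81.5% of the 2014 newly called windows without a HIF-α window, a difference of -1.98 points (-4.95 to 0.890), and AP-1 at 1.54% and 2.09%, a difference of -0.547 points (-1.47 to 0.512). TATAAA was found at 1.81% of sites and 9.25% of promoters, and CCAAT, read by NF-Y, at 17.8% and 33.7%.

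**Figure D3:**
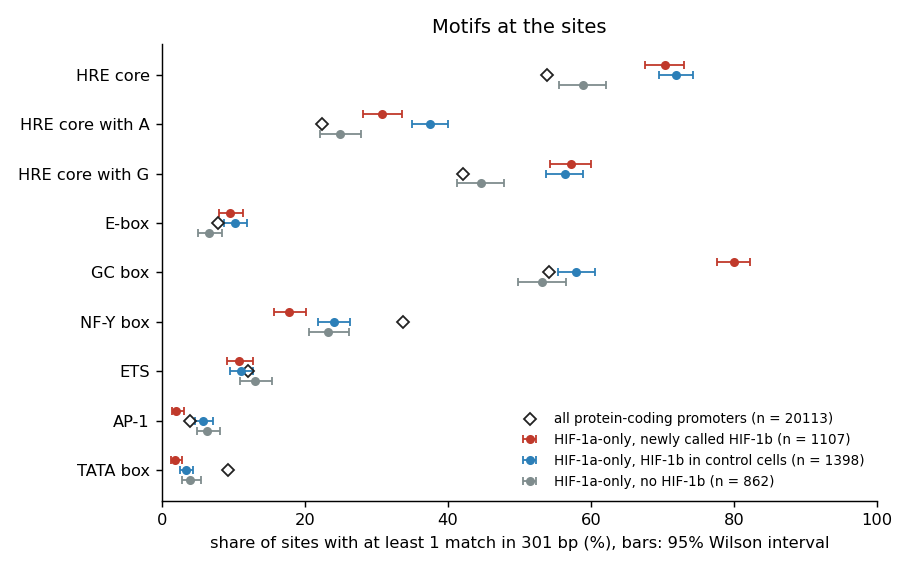
Share of sites (%) with at least 1 match to each motif within 150 bp (horizontal axis) for 3 groups of HIF-1α-only sites, as points with 95% Wilson intervals, and for all protein-coding promoters, as open diamonds. The GC box stands at 80.04% of the sites with newly called HIF-1β against 57.9% and 53.1% of the other HIF-1α-only sites, and AP-1 at 1.99% against 5.72% and 6.26%. The newly called HIF-1β windows without a HIF-α window, which are not plotted, had 81.5% and 2.09%. No share in the figure is matched for GC content.

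HIF-1α and HIF-1β were called close to each other. The midpoints of the 2 windows lay a median of 210 bp apart, and 888 sites (80.2%) shared at least 2000 of their 2500 bp with the HIF-1β window. The rule asks for 1 base, and only 4 sites shared under 250 bp. The 5 sites with the least sharing were at MAFK (48 bp), PTGDS (65 bp), PNPLA2 (204 bp), ENSG00000279151 (210 bp) and JMJD4 (372 bp). The HIF-1α-only sites that just missed had gaps to the HIF-1β window of 83 bp at CARD19, 135 bp at KCNN1, 168 bp at CXXC5, 173 bp at HOXB7 and 189 bp at RECQL4. At the other border of the rule, 22 sites had a HIF-1β window of the control cells, and 15 a HIF-2α window, less than 2500 bp away. Newly called means a window in 1 list and not in another, and without signal values a difference in binding cannot be given.

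One list did not enter the rule, that of HIF-1β in the HIF-2α overexpressing cells. The groups compared were themselves chosen by HIF-1β calls in the other pools, so the order of their shares is only a description. This list had a window at 138 of the sites (12.5%, 10.7 to 14.5), against 38.8% of the control-HIF-1β sites (difference -26.3 points, -29.5 to -23.04) and 4.99% of the sites without HIF-1β (difference 7.48 points, 5.01 to 9.91). So 969 sites had HIF-1β called in the re-expressing cells alone. The 138 sites held an HRE core at 73.9% (66.0 to 80.5) and the 969 at 69.9% (66.9 to 72.7), and their median GC contents were 72.1% and 72.4%. None of the 138 held an AP-1 motif (upper Wilson bound 2.71%), and 22 of the 969 did (2.27%). The HIF-1β list of the overexpressing cells holds 3431 windows, the fewest of the 3 HIF-1β lists, and its part in these shares was not tested.

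The 1107 sites were nearest 1097 genes, 10 of which had 2 sites. In the table of RNA-seq counts 972 of these genes were found and 945 passed the filter on low counts (97.2%), against 14225 of all 23441 genes (60.7%). The filter needs reads, so the rest of this account covers expressed genes. In the control cells the 945 genes had a median of 44.7 CPM (counts per 1e6 reads after TMM scaling), against 24.7 for all tested genes, 50.8 for the genes nearest control-HIF-1β sites and 45.4 for those nearest sites without HIF-1β. The cells showed their renal markers, with PAX8 at 175 to 364 CPM, VIM at 3963 to 5671 CPM and KRT8 at 289 to 603 CPM over the 9 libraries, while PTPRC, CD3E, PECAM1 and ALB stayed under 1 CPM. CA9, the marker of hypoxia signalling in this cancer, ran from 0 to 177 CPM.

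HIF1A, the gene of the re-expressed subunit, is itself the nearest gene of a site, at chr14:62161066-62163565, 57 bp downstream of the start site in the untranslated region. It was at 30.4, 36.7 and 152 CPM in the control libraries 1 to 3, at 171, 1682 and 473 CPM in the re-expressing libraries and at 15.3, 30.4 and 17.5 CPM in the HIF-2α overexpressing libraries. The re-expressing libraries lie above all others, but the lowest is near the control library 3. The difference from the control cells was 3.41 on the log2 scale (SE 0.87, adjusted p of 0.149, edgeR quasi-likelihood test). With the replicate number as a block it was 3.12 (SE 0.71, adjusted p of 0.0418), a call made in 1 of 9 such fits that each left out 1 library, and DESeq2 gave an adjusted p of 0.0214 without and 0.00358 with the block. Reads of the introduced HIF-1α sequence and of the gene cannot be told apart in these counts. EPAS1, the gene of HIF-2α, also has a site, in its first kilobase (927 bp downstream of the start, in an intron). It was at 456, 224 and 162 CPM in the control cells, at 575, 627 and 397 CPM with HIF-1α and at 946, 3244 and 880 CPM with HIF-2α, where reads of the introduced HIF-2α sequence and of the gene likewise cannot be told apart. ARNT, the gene of HIF-1β, was nearest none of the sites and had 33.1 to 42.6 CPM in the control cells and 37.1 to 69.9 CPM in the re-expressing cells.

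For HIF-1α re-expressing against control cells, edgeR's quasi-likelihood test called none of the 945 genes (0 up, 0 down at an adjusted p under 0.05), where 0% of all 14225 genes were called in either direction. By unadjusted p under 0.05, 135 genes were higher (14.3%) and 56 lower (5.93%), against 11.1% and 8.23% of all genes. DESeq2 without a block called 54 higher and 8 lower, or 5.71% and 0.847%, where it called 3.44% and 1.89% of all genes. With the replicate number as a block, since libraries of the same number deviate together, edgeR called 70 genes higher (7.41%) and 9 lower (0.952%), against 5.41% and 2.55% of all genes. DESeq2 with the block called 143 higher and 71 lower (15.1% and 7.51%, against 11.8% and 9.35% of all genes). The block calls of edgeR depended on single libraries. They were 0 without HIF-1α library 2, without HIF-2α library 1, without control library 2 and without control library 3, 16 higher and 0 lower without HIF-1α library 1, and 5 and 0 without HIF-1α library 3. Without control library 1 they were 112 higher and 55 lower, and without HIF-2α library 2 or 3 they were 47 and 7 or 42 and 3.

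As a whole the nearest genes were centred near 0, like all tested genes. The median log2 fold change of the 945 genes was 0.045, against 0.036 over all tested genes, and 80% of the genes lay between -0.54 and 0.93. Pairing libraries by number, the 3 medians were 0.07, 0.02 and 0.05 (0.05 ± 0.03, SD, n = 3, on log2 of CPM + 0.5), and for all tested genes 0.02, 0.00 and 0.07. In 140 genes (14.8%) all 3 re-expressing libraries lay above all 3 control libraries and in 94 (9.95%) below, against 12.9% and 11.2% of all genes. Set beside the other groups of sites in the block fit, 9.86% of 1034 genes nearest control-HIF-1β sites were called higher and 2.22% lower, 4.67% and 4.36% of 642 genes nearest sites without HIF-1β, and 8.20% and 1.92% of 988 genes nearest sites with HIF-2α. These groups were measured in the same libraries, and the differences between their shares were not tested.

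Among the genes called higher in the block fit, 12 were named for the largest rise (at least 5 CPM in the higher pool and the same direction in all 3 pairs). Besides HIF1A they were HOXA13, SDK1, SETBP1, PTPRU, SFMBT2, TRIB2, RELN, CACNA2D1, FAM63B, STON2 and PTPRG, with log2 fold changes in that fit from 1.85 (PTPRG) to 3.31 (HOXA13) and adjusted p from 0.0264 to 0.0418. Without the block edgeR's adjusted p of the 12 genes were 0.149 to 0.170. Each was called in 1 to 5 of 9 edgeR block fits that each left out 1 library. DESeq2 without the block gave the 12 genes adjusted p from 6.82e-05 (SDK1) to 0.0264 (STON2). Of the 12 sites 9 held an HRE core within 150 bp, the exceptions being RELN, FAM63B and PTPRG.

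SDK1, an adhesion molecule of the immunoglobulin family, has its site at chr7:3339173-3341672, 462 bp upstream of the nearest start, with the core printed above. It was at 2.85, 1.93 and 6.04 CPM in the control libraries and at 14.4, 31.0 and 41.5 CPM in the re-expressing libraries, and at 1.42, 4.85 and 3.62 CPM with HIF-2α. Each re-expressing library exceeded every control library more than 2-fold, and the log2 fold change was 2.93 (SE 0.41, adjusted p of 0.0264 with the block).

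PTPRU, a receptor-type tyrosine phosphatase, has 6 cores at its site in an intron (chr1:29562671-29565170, 769 bp downstream of the start), more than any other of the 12. Its levels were 5.36, 3.16 and 13.6 CPM in the control, 24.95, 80.3 and 56.3 CPM in the re-expressing and 3.42, 8.27 and 10.2 CPM in the overexpressing libraries. The pools with HIF-1α and without it do not overlap, and the log2 fold change was 2.87 (SE 0.46, adjusted p of 0.0308). PTPRG, a phosphatase of the same class, was at 20.3, 31.0 and 18.8 CPM in the control and 61.8, 82.0 and 98.2 CPM in the re-expressing libraries.

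RELN, the secreted glycoprotein reelin, has its site 614 bp upstream of the start (chr7:103629470-103631969) with no core within 150 bp and the nearest at 228 bp. It was at 13.1, 8.96 and 32.9 CPM in the control libraries and at 68.7, 54.8 and 187 CPM in the re-expressing libraries. With HIF-2α it was at 5.90, 9.21 and 4.21 CPM, which is below the control in libraries 1 and 3 and near it in library 2. The log2 fold change of re-expressing against control cells was 2.49 (SE 0.49, adjusted p of 0.0357).

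HOXA13, a homeobox transcription factor, was at 0.362, 0.967 and 1.04 CPM in the control and at 2.18, 22.2 and 6.40 CPM in the re-expressing libraries, so that library 2 holds most of its mean. SETBP1, which binds the SET oncoprotein, was at 2.54, 0.597 and 1.54 CPM in the control and 10.4, 8.76 and 13.5 CPM in the re-expressing libraries. SFMBT2, a Polycomb-group protein, went from 1.79, 2.70 and 4.95 CPM to 8.43, 23.4 and 26.8 CPM, and TRIB2, a pseudokinase, from 1.06, 1.48 and 3.80 CPM to 4.44, 9.04 and 27.6 CPM. In all 4 genes the 3 re-expressing libraries lay above the 3 control libraries.

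CACNA2D1, an auxiliary subunit of voltage-gated calcium channels, was at 2.22, 3.93 and 1.20 CPM in the control, 11.4, 14.9 and 9.12 CPM in the re-expressing and 4.81, 10.4 and 2.54 CPM in the overexpressing libraries. FAM63B, a deubiquitinase, was at 10.2, 6.66 and 2.50 CPM in the control and 24.2, 26.0 and 21.8 CPM in the re-expressing libraries, and STON2, an endocytic adaptor, at 4.61, 11.6 and 10.1 CPM and 9.36, 46.7 and 51.5 CPM. STON2 is the one of these whose pools overlap, since its re-expressing library 1 lies below the control libraries 2 and 3.

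The 8 genes with the largest fall changed less, by -0.78 to -1.38 on the log2 scale. Their edgeR adjusted p were 0.0363 to 0.0431 with the block and 0.149 to 0.294 without. POLR3K, a subunit of RNA polymerase III, was at 17.5, 32.4 and 30.2 CPM in the control and 11.8, 11.2 and 7.52 CPM in the re-expressing libraries, with 3 cores at its site (chr16:102349-104848). ATP5J, coupling factor 6 of the mitochondrial ATP synthase, was at 94.6, 101 and 144 CPM in the control and 62.7, 60.1 and 66.7 CPM in the re-expressing libraries. MRPL23, a protein of the mitochondrial ribosome, fell from 39.2, 36.3 and 47.8 CPM to 24.1, 22.3 and 16.2 CPM. The others were FADS2, a fatty acid desaturase, ATP1B3, a subunit of the sodium pump, PCYT2, an enzyme of phosphatidylethanolamine synthesis, SCAND1 and C7orf73. The re-expressing and control libraries overlapped for FADS2 and PCYT2 and for no other of the 8 genes. DESeq2 without the block gave adjusted p of 0.0991 for ATP1B3, 0.230 for FADS2 and 0.231 for PCYT2. For the rest of the 8 it gave 0.00148 (POLR3K) to 0.0222 (SCAND1).

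**Figure D4:**
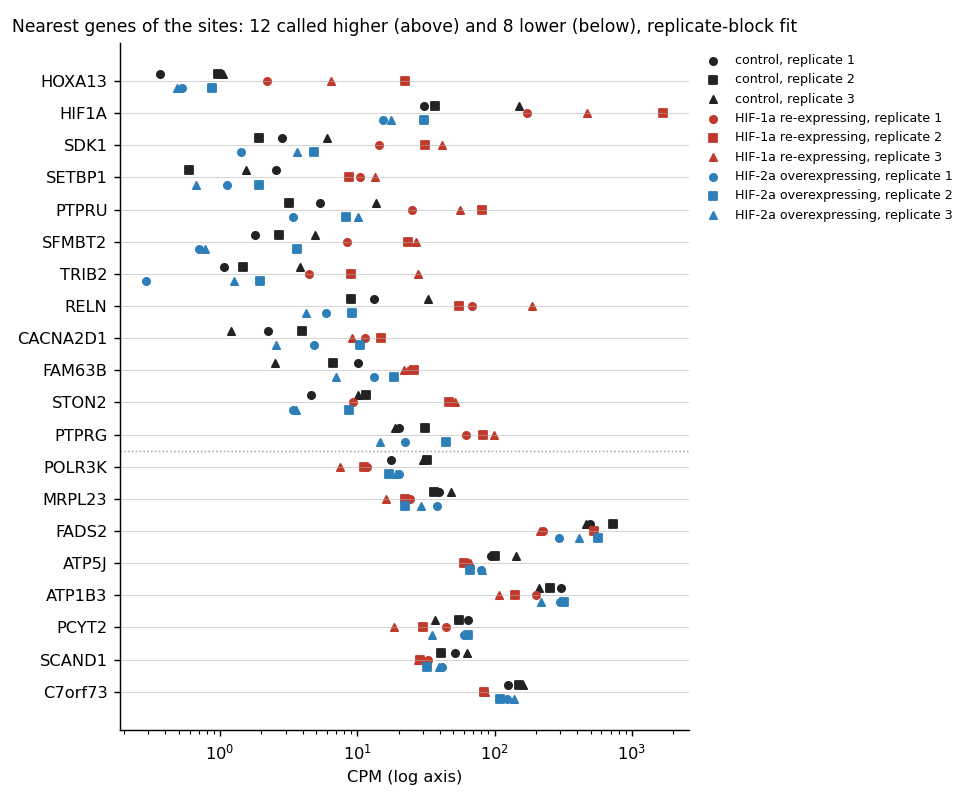
CPM on a log axis (horizontal) in each of the 9 RNA libraries for the 12 nearest genes with the largest called rise and the 8 with the largest called fall in HIF-1α re-expressing against control cells, in the fit with the replicate block. Colours mark the cell pools and marker shapes the replicate numbers. HIF1A reaches 1682 CPM in re-expressing library 2, and the pools of re-expressing and control cells overlap for STON2, FADS2 and PCYT2.

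HRE cores were found at sites of called and of uncalled genes. Sites whose gene was called higher in the block fit held a core in 54 of 70 (77.1%), those whose gene was called lower in 6 of 9, and those whose gene was not called in 614 of 876 (70.1%). The genes called higher were lower expressed in the control cells, with a median of 14.1 CPM against 47.4 CPM for genes not called and 93.9 CPM for genes called lower. HIF-1β in the HIF-2α overexpressing cells was called at 6 of the 70 sites (8.57%) and 112 of the 876 (12.8%).

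For HIF-2α overexpressing against control cells few of these genes passed a test. Against the control cells edgeR called 0 of 945 at an adjusted p under 0.05 (0% of all genes), with 35 up and 18 down by unadjusted p under 0.05, or 3.70% and 1.90% against 3.35% and 2.54% of all genes. DESeq2 without a block called 2 higher and 2 lower, against 0.246% and 0.176% of all genes, and with the block 30 higher and 8 lower, against 1.88% and 1.51%. The block fit of edgeR called 1 gene, SOGA1, higher and 0 lower, against 0.112% and 0.155% of all genes. Its adjusted p was 0.0372 with the block and 0.684 without, and it was called in 1 of 9 block fits that each left out 1 library. SOGA1 was at 13.4, 18.5 and 9.43 CPM in the control, 29.9, 46.9 and 23.05 CPM with HIF-2α and 34.1, 37.8 and 28.9 CPM with HIF-1α, so that both pools lie above the control, and its site (chr20:35491025-35493524) has HIF-1β called in the overexpressing cells too. The comparisons of both pools with control cells share the control libraries.

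Set directly against HIF-2α overexpressing cells, the re-expressing cells had 1 nearest gene called higher and 0 lower without the block (0.0281% and 0.0211% of all genes), and 92 up and 36 down by unadjusted p under 0.05 (9.04% and 4.6% of all genes). DESeq2 called 42 higher and 7 lower without the block (3.27% and 0.97% of all genes) and 87 and 33 with it (8.17% and 4.32%). The 1 gene was MAL2, a protein of membrane traffic in epithelia, at 116, 126 and 127 CPM with HIF-1α, 26.2, 25.1 and 42.0 CPM with HIF-2α and 89.9, 66.7 and 56.0 CPM in the control cells, so that the control lies between them. Its log2 difference was 1.98 (SE 0.26, adjusted p of 0.0462), and its site has no core. MAL2 is named because it was the only such gene, after its values were seen. It lost this call when any 1 of HIF-1α libraries 2 and 3, HIF-2α libraries 1 to 3 or control libraries 1 and 2 was left out. With the block 59 genes were higher (6.24%, against 4.54% of all genes) and 10 lower (1.06%, against 1.38%), and these counts ranged over 15 to 57 and 1 to 12 when 1 library was left out.

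Among genes that met the naming rule, the largest differences upward in the block fit were, beside HIF1A, RELN and SFMBT2, at PTGDS, a prostaglandin D synthase, and EPHB1, an ephrin receptor. EPHB1 was at 43.9, 28.4 and 23.1 CPM with HIF-1α, 4.77, 2.23 and 1.52 CPM with HIF-2α and 17.5, 4.72 and 11.2 CPM in the control cells, so that the HIF-1α libraries lie above all others while HIF-2α library 1 and control library 2 are level. Its log2 difference was 3.58 (SE 0.36, adjusted p of 0.00234 with the block). PTGDS was uneven, at 5.29, 1.27 and 152 CPM with HIF-1α against 0.241, 0.384 and 4.32 CPM with HIF-2α, and its site is one of those just inside the rule. Downward, ROR2, a receptor for WNT5A, was at 15.4, 22.6 and 32.9 CPM with HIF-1α, 41.3, 54.5 and 65.03 CPM with HIF-2α and 21.5, 29.6 and 33.2 CPM in the control cells. SPAG1 and C1orf21 were the other 2 with the largest differences downward.

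The 10 lists of hypoxia-related genes were read against all protein-coding genes, of which 956 of 20136 (4.75%) were nearest one of these sites. The 1780 sites with a HIF-2α window were nearest 1569 genes of all classes, and their share over all protein-coding genes was not counted. Of 16 genes of glycolytic enzymes in the count table, 0 were nearest one of the sites and 12 were nearest a HIF-1α site with a HIF-2α window. At control-HIF-1β sites and sites without HIF-1β it was 0 and 0. Of the angiogenesis and growth factor list and of the collagen-modifying list, 0 of 13 and 0 of 11 were nearest one of the sites, against 4 and 5 for sites with HIF-2α, and of 13 genes of pyruvate, lactate and pH 0 against 4. In the stress adaptation list it was 1 of 17 (RORA) against 12. The list of oxygen sensing and HIF subunits had 4 of 15 (HIF1A, EPAS1, EGLN2 and SIAH1) against 3. The other lists gave PFKFB3 (1 of 11), COX4I1 (1 of 10), KDM2A and KDM3B (2 of 17), and MAX and FOS (2 of 17), against 5, 4, 5 and 5 for sites with HIF-2α. At control-HIF-1β sites and sites without HIF-1β the counts were 2 and 2 for angiogenesis, 1 and 0 for collagen, and 3 and 1 for pyruvate. For stress adaptation they were 3 and 0, and for oxygen sensing 0 and 0. In the lists of PFKFB3, COX4I1, KDM2A and MAX they were 1 and 0, 1 and 1, 2 and 1, and 4 and 1.

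As lists, these pathways moved as follows in the block fit of HIF-1α re-expressing against control cells. DESeq2 without the block gave adjusted p of 1.52e-05 for RORA and 0.0214 for HIF1A, but its calls were not counted by list. In edgeR none of the tested genes of the 10 lists passed without the block. With it, where 5.41% of all tested genes were called higher and 2.55% lower, 2 of 11 genes of glucose uptake and glycogen (GBE1 and PPP1R3C), 2 of 9 of mitochondria (BNIP3L and MXI1), 2 of 17 JmjC demethylases (KDM3A and KDM6B), 2 of 10 collagen-modifying enzymes (P4HA1 and LOX) and 6 of 17 of stress adaptation were higher. Of these genes RORA alone was the nearest gene of a site described here. HIF1A was 1 of 14 of its list, CA9 1 of 13 of its list with MPC2 lower, and FOSL2 1 of 15 with CCND3 lower, while glycolytic enzymes and angiogenesis factors had 0 of 16 and 0 of 12. The median log2 fold change ran from 0.10 in the cell cycle list to 1.14 in the stress adaptation list, against 0.043 over all tested genes.

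RORA, a nuclear receptor of the stress adaptation list, was near 0 in the control cells, at 0.026, 0.028 and 0.052 CPM, and at 0.637, 9.72 and 1.47 CPM with HIF-1α, where library 2 again stood highest, and at 0.120, 0.209 and 0.026 CPM with HIF-2α. Its edgeR adjusted p was 0.149 without and 0.0264 with the block, and it was called in 4 of 9 edgeR block fits that each left out 1 library. DESeq2 gave adjusted p of 1.52e-05 without and 1.33e-07 with the block. No fold against the control is given because the control is so near 0. Its site is in an intron (chr15:60883155-60885654).

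PFKFB3, whose product makes the activator of glycolytic phosphofructokinase, has 5 cores at its site (chr10:6204596-6207095, 49 bp downstream of the start). It was at 146, 215 and 151 CPM in the control, 132, 511 and 176 CPM with HIF-1α and 121, 213 and 268 CPM with HIF-2α. The pools overlap, and the adjusted p was 0.451 without and 0.342 with the block. EGLN2, an oxygen-dependent prolyl hydroxylase of HIF-α, ran from 0.834 to 2.13 CPM over the 9 libraries, and its log2 fold change was 0.28 (SE 0.46).

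COX4I1, a subunit of cytochrome c oxidase, was at 258, 248 and 318 CPM in the control, 175, 174 and 193 CPM with HIF-1α and 224, 152 and 198 CPM with HIF-2α. Both pools lay below the control, with a log2 difference of -0.60 for HIF-1α (SE 0.21, edgeR adjusted p of 0.197 without and 0.0626 with the block). DESeq2 gave an adjusted p of 0.0705 without and 0.0129 with the block. KDM2A, a histone demethylase, was at 69.2, 83.0 and 68.03 CPM in the control and 101, 141 and 99.7 CPM with HIF-1α (edgeR adjusted p of 0.196 without and 0.0517 with the block, DESeq2 0.133 and 0.0135). FOS, an immediate early gene that encodes a subunit of AP-1, followed the replicate number, with 102, 103 and 46.2 CPM in the libraries numbered 2 of the control, HIF-1α and HIF-2α pools and 2.41 to 10.8 CPM in the others. SIAH1, KDM3B and MAX differed by -0.19, 0.24 and -0.23 on the log2 scale in the fit without the block, less than 1 SE each. With the block the differences were -0.196 (SE 0.185), 0.271 (SE 0.182) and -0.218 (SE 0.174), with edgeR adjusted p of 0.481, 0.320 and 0.402.

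By gene family, read from the start of the symbol, the sites were the nearest of 956 of 20136 protein-coding genes (4.75%). Calls are those of the block fit of HIF-1α re-expressing against control cells, which called 5.41% of all tested genes higher and 2.55% lower. The counts per family are small and were not tested against these shares. Of ubiquitin ligases and conjugating enzymes 25 of 207 had a site (12.1%), among them CUL4A and UBE2K, and 2 of these 25 were called higher in the block fit, CUL9 and RNF122. Spliceosome proteins had 6 of 74 (8.11%), zinc finger genes 22 of 537 (4.10%) with 4 called higher, and solute carriers 17 of 373 (4.56%) with none called. Subunits of the respiratory chain and ATP synthase had 5 of 98 (5.10%), 1 of them called lower, cytosolic ribosomal proteins 3 of 88, mitochondrial ribosomal proteins 2 of 78, translation factors 4 of 71 and RNA polymerase subunits 2 of 34. Histone genes, taken by current symbols that include linker histones and variants, had 1 of 88, the variant H2AX. Aminoacyl-tRNA synthetases had 1 of 34, and 0 of 40 proteasome subunits and 0 of 28 snoRNA host genes were nearest a site.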

How the data were processed

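The peak lists were used as the authors deposited them, as positions of 2500 bp windows on GRCh37 with no score, signal or depth. Per the labels and methods, windows were kept where both MACS and T-PIC called a peak in the 1 library of each antiserum and pool, and were then filtered on read counts. The RNA-seq values are raw read counts per gene symbol as deposited by the authors, made from directional polyA libraries with HTSeq 0.5.4p3, according to the submitters' processing notes, and not normalised. The members, gene lists and naming rule were chosen with earlier results of these data known.

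Windows were compared by shared bases (at least 1). Start sites came from GENCODE 44 lifted to GRCh37, and motifs were counted on both strands within 150 bp of the midpoint with pysam 0.24.0. Shares have 95% Wilson intervals and differences Newcombe intervals. Of 23441 gene symbols with counts, 20654 matched the annotation directly and 1399 through an older symbol. Counts were tested with edgeR 4.0.16 (TMM, quasi-likelihood, all 9 libraries in 1 fit, Benjamini-Hochberg adjustment over 14225 genes, R 4.3.3), without a block as the main fit. DESeq2 1.42.0, other filters, each library left out and the replicate number as a block were alternatives. Libraries of the same number deviated together from their pool means in all 9 pairs (r of 0.348 to 0.652, against -0.478 to 0.0281 in 18 pairs of different numbers), so block values stand beside the results that they change. The common dispersion was 0.141 without and 0.0603 with the block. Genes were named in the block fit among those called, with at least 5 CPM in the higher pool and the same direction in all 3 pairs, the 12 largest rises and 8 largest falls against control and up to 5 and 3 otherwise, together with the list genes nearest a site. Histone genes were matched by current symbols, which take in linker histones and variants, instead of the HIST symbols first planned for core histones. The fits were tested on simulated data. Input libraries were not used here.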

Additional observations from a re-analysis of the deposited data

Results flagged for a closer look

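For 20 genes named above, the effect of HIF-1α re-expression and that of HIF-2α overexpression, each against the control cells, differed from each other in edgeR's test of the difference itself with the replicate block, at adjusted p of 0.00234 to 0.0436. That test called 4.54% of all 14225 tested genes higher and 1.38% lower. Most of the 20 had been named for a call in the block fit, some of them in this same comparison, so their number is only a description. In edgeR's fit without the block none of the 20 passed, with adjusted p of 0.0541 to 0.746. In DESeq2 without the block, ATP1B3, C1orf21, CACNA2D1, PCYT2, PTGDS and SPAG1 had adjusted p of 0.0616 to 0.393, and FOS had none. The rest of the 20 had DESeq2 adjusted p of 3.90e-09 (RELN) to 0.0151 (ROR2). Both effects share the control libraries.

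The difference was upward, HIF-1α over HIF-2α, for 15 genes on the log2 scale. It was 4.79 for HIF1A, whose counts include the introduced sequence, 4.49 for RORA, 4.202 for PTGDS, 3.69 for RELN, 3.60 for SFMBT2 and 3.58 for EPHB1. It was 3.55 for HOXA13, 3.41 for TRIB2, 3.13 for SETBP1, 3.12 for SDK1 and 2.93 for PTPRU. It was 2.59 for STON2, 1.71 for PTPRG, 1.62 for FOS and 1.21 for CACNA2D1. The level of FOS followed the replicate number in all 3 pools.

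It was downward for SPAG1 (-1.25), ROR2 (-1.22), C1orf21 (-1.05), ATP1B3 (-0.93) and PCYT2 (-0.82).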

How the results depend on the processing

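The share of sites within 5 kb of a start site (98.7%) became 95.7% when protein-coding start sites alone were used, 90.7% with 1 start site per gene and 95.6% with a limit of 1 kb, and the share nearest a protein-coding gene became 75.9% with 1 start site per gene. The share with an HRE core was 34.4% within 50 bp, 96.9% within 500 bp and 30.7% for ACGTG alone, and that with AP-1 was 0.632% and 8.49%. These follow from the length searched or the start sites counted.

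The gene calls depended on the replicate block and the tool. With the replicate block, 79 nearest genes were called for HIF-1α against control, 1 for HIF-2α against control and 69 for HIF-1α against HIF-2α (0, 0 and 1 without the block). DESeq2 called 62, 4 and 49 without the block and 214, 38 and 120 with it. With the block, the calls were 104, 1 and 80 over genes within 10 kb, 90, 1 and 78 over nearest protein-coding genes, and 76, 1 and 66 over sites with no excluded window within 5 kb. For HIF-1α against HIF-2α, 11 genes were called with every gene of at least 1 count, 5 with at least 1 CPM in 3 libraries and 0 with only the 2 pools compared. Leaving out 1 library gave 0 to 167, 0 to 4 and 0 to 69 calls, over fits with and without the block. The cause of these differences was not tested. The median log2 fold change for HIF-1α against control was 0.0049 over genes within 10 kb without the block and 0.0130 over the same genes with it. Over the nearest genes it was 0.045 without and 0.050 with the block.

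The block reversed none of the 40 named values, and 30 passed with it. Most of the 40 had been named for a call in that fit, so neither count tests the block. FOS changed sign without HIF-1α library 2 (-1.81), control library 1 (-0.35) or control library 3 (-0.37), its values running from -1.81 to 3.23. PFKFB3 did so without HIF-1α library 2 (-0.18, and -0.05 with the block), its values running from -0.18 to 1.01. Without peak scores or ChIP-seq replicates, a window absent from a list may lie just under its threshold.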
